A study of Mus musculus with 6 samples.

Results

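The genes described here are those of the cytosolic ribosomal proteins, the protein components of the ribosome that translates nuclear-encoded mRNA. They were chosen by name alone: mouse symbols of the Rps and Rpl form, with Rplp0 to Rplp2 and Rpsa, and without pseudogene symbols and the S6 kinase genes. The rule gave 87 genes of the 27998 in the matrix, 53 named for the large subunit and 34 for the small one. At least 1 transcript was counted for 86 of them, and 84 passed the filter on low counts. The 3 that did not were Rpl10l, with no transcript counted, Rpl3l, with 2, and Rpl39l, with 46 in all 6 libraries together. These are copies that in mouse are known mainly from testis or striated muscle.

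The cells were differentiated epithelial monolayers grown on inserts from mouse intestinal spheroids, and those of all groups carried Rosa26-floxed STOP-Cas9 and cmv-cre in B6 mice. Tunicamycin at 0.5 µg/ml was given for 13 h or for 25 h before a common harvest, and the third group received DMSO, the vehicle. Each group had 2 libraries, called biological replicates by the submitters, and each library came from droplet capture of single cells after dead cells were removed. Small intestine is given as the tissue, whereas the growth protocol speaks of colonic spheroids, and the labels leave this unsettled. Tunicamycin blocks N-linked glycosylation so that unfolded proteins build up in the endoplasmic reticulum.

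Each cytosolic ribosome joins a small subunit, which reads the mRNA, to a large subunit, which forms the peptide bond. Most of their protein genes carry a 5′ terminal run of pyrimidines in the mRNA, the TOP motif, through which mTORC1 and the RNA-binding protein LARP1 set how strongly the mRNAs are translated and how long they last. Under stress of the endoplasmic reticulum, the kinase PERK phosphorylates the initiation factor eIF2α and lowers translation initiation in general. In the intestine, goblet cells secrete mucin and enterocytes absorb nutrients.

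The libraries held 537 to 1178 cells after filtering and 9432005 to 19539013 transcripts, each counted once by its unique molecular identifier (UMI). Cell classes were those the authors wrote into the cell names. Goblet cells made up 8.91% and 9.36% of the cells in the DMSO libraries, 9.87% and 9.14% of them in the 13 h libraries, and 18.2% and 15.8% of them in the 25 h libraries, so values for all cells also carry this shift. The 10 goblet markers summed to 79282 to 196519 CPM (UMIs of each 1000000) in goblet cells and to 2348 to 3923 in enterocytes. The 12 enterocyte markers differed less between the classes, at 1908 to 4172 CPM in goblet cells and 2882 to 5635 CPM in enterocytes. In the class named tuft, with 12 to 27 cells per library, the 8 enteroendocrine markers exceeded the 9 tuft markers in 4 of the 6 libraries, so its values are given under its name only.

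Promoter sequences from RefSeq on GRCm38.p6 were at hand for 66 of the 87 genes. They are shown because the start of the transcript carries the TOP motif, which most of these genes share whatever their change. Each sequence runs from 35 bases before to 20 bases from the listed start, 5′ to 3′ on the gene's strand, and capitals mark runs of at least 7 pyrimidines within 40 bases of that start. Rps6 and Rps18 rose strongly under tunicamycin, and Rpl22l1, Rpl38 and Rps28 fell behind the other members. Without 25 h replicate 1, Rpl38 and Rps28 no longer passed the rule for departing members given below. Nor did Rpl38 without DMSO replicate 1 or with cells of at most 10% mitochondrial UMIs.
Rps6, chr4:86857348-86857402, minus strand: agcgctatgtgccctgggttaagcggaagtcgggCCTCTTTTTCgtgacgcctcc
Rps18, chr17:33955646-33955700, minus strand: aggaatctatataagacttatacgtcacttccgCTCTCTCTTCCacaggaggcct
Rpl22l1, chr3:28805473-28805527, plus strand: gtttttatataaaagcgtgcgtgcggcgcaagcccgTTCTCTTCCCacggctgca
Rpl38, chr11:114668545-114668599, plus strand: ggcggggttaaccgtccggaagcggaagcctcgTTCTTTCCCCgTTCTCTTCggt
Rps28, chr17:33824543-33824597, minus strand: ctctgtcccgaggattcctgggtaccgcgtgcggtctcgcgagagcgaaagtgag
Such a pyrimidine run stood near the listed start in 54 of the 66 genes (81.8%), against 46.6% of 27025 symbols with a promoter sequence. The letters CCGGAAG, on either strand, lay in the 300 bases around the start in 26 of the 66 (39.4%), against 9.93% of all symbols. A C followed by at least 4 pyrimidines began exactly at the listed start in 14 of the 66 (21.2%), against 3.01% of all. Rpl22l1 and Rpl38, which lagged, carry a run like those of Rps6 and Rps18, and no run was found in this window of Rps28.

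The share of a cell's mRNA given to ribosomal proteins grew with time in tunicamycin. Over all cells, members took 8.34% and 8.12% of UMIs in the DMSO libraries, 10.8% of UMIs in each 13 h library, and 14.5% and 15.8% of UMIs in the 25 h libraries. The 3 groups did not overlap. The mean was 15.1% ± 0.908 at 25 h and 8.23% ± 0.155 in DMSO (SD, n = 2 each), a ratio of 1.84. At 13 h it was 10.8% ± 0.0234, which is 1.31 times the DMSO mean. With 2 libraries a group, the exact 2-sided permutation test cannot go below p = 0.333, which is the value it gave for each of these comparisons. The number of member UMIs per cell moved the same way, at 1383 and 1285 UMIs in DMSO, 1902 and 1929 UMIs at 13 h, and 2545 and 3003 UMIs at 25 h. The median total per cell lay between 14465 and 17298 in every library.

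Goblet cells started lower and ended higher than enterocytes. In goblet cells, members took 5.37% and 5.27% of UMIs in DMSO, 10.7% and 10.1% of UMIs at 13 h, and 15.9% and 17.5% of UMIs at 25 h. The goblet mean at 25 h was thus 3.14 times that in DMSO. In enterocytes, members took 8.31% of UMIs in each DMSO library, 10.4% and 10.6% of UMIs at 13 h, and 14.1% and 15.4% of UMIs at 25 h, and the mean at 25 h was 1.78 times that in DMSO. Transcripts of the 10 goblet markers, which include the mucin gene Muc2, took 7.93% and 9.56% of goblet UMIs at 25 h and 19.7% and 18.3% in DMSO. With those UMIs left out of the total, the member share in goblet cells was 17.3% and 19.4% at 25 h, and 6.68% and 6.45% in DMSO, a ratio of 2.79. In the class named tuft, members took 13.7% and 10.6% of UMIs in DMSO, 17.6% and 17.2% of UMIs at 13 h, and 17.7% and 18.5% of UMIs at 25 h.

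**Figure D1:**
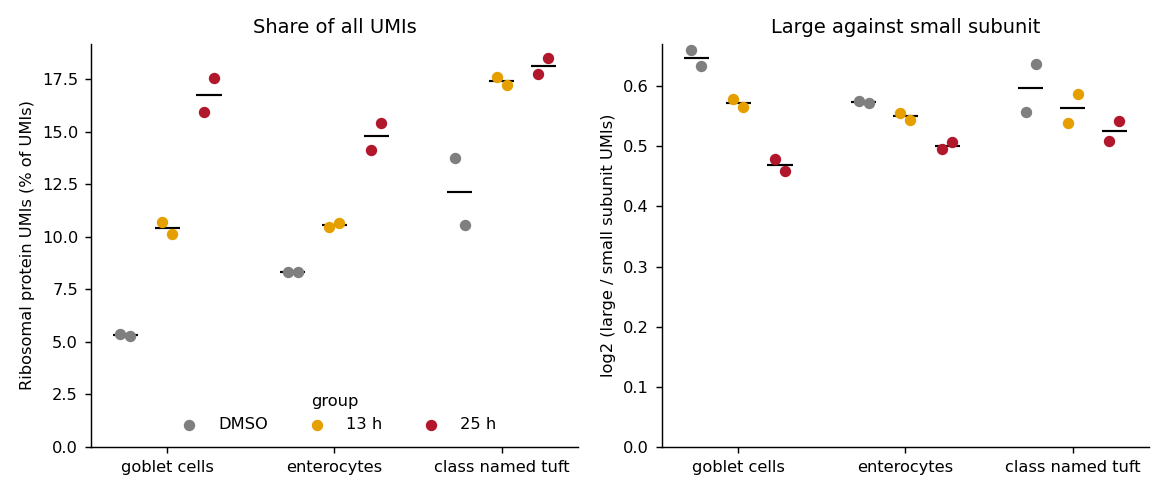
Left, ribosomal protein UMIs as a percentage of all UMIs in each library, by the authors' cell class; right, the log2 ratio of large to small subunit UMIs. Points are libraries, bars are group means (n = 2), and in goblet cells and enterocytes the 3 groups do not overlap in either panel.

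The rise was spread over most cells of a class. In goblet cells, the median cell gave 4.28% and 4.33% of its UMIs to members in the DMSO libraries, 8.94% and 8.29% of them at 13 h, and 15.4% and 16.6% of them at 25 h. Of goblet cells, 85.7% and 88.4% in the 25 h libraries exceeded the 90th percentile of DMSO goblet cells, which was 9.1%. At 13 h, 45.5% and 46.7% did so. In enterocytes, the median cell gave 7.28% and 7.53% of its UMIs in DMSO, 9.45% and 10.0% of them at 13 h, and 13.7% and 14.5% of them at 25 h, and 50.7% and 58.2% of cells at 25 h lay above the DMSO 90th percentile of 13.5%. The 5th percentile of enterocytes was 3.99% and 5.26% at 25 h, against 2.91% and 2.74% in DMSO. With each cell thinned to 5000 UMIs, which left out 2 to 13 cells per library and class, the medians were 15.2% and 17.5% in 25 h goblet cells and 4.44% and 4.56% in DMSO goblet cells. Within each library, enterocytes with a higher member share had a lower mitochondrial share (Spearman rho between −0.465 and −0.386 across 426 to 1046 cells of a library, given as a description). The mitochondrial share of all UMIs was 7.52% and 7.24% at 25 h, and 8.99% and 9.004% in DMSO, and its part in the result was not tested.

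**Figure D2:**
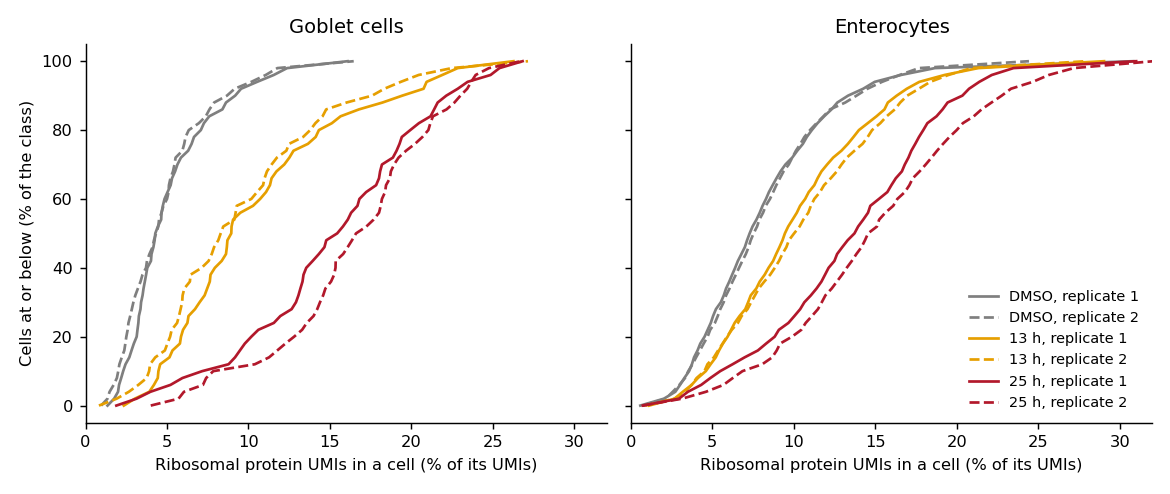
Cumulative distribution of the ribosomal protein share of UMIs per cell, for goblet cells (left) and enterocytes (right). Each line is a library, and the 25 h lines lie to the right of the 13 h lines and those to the right of the DMSO lines over most of their length.

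Gene by gene, nearly all members rose. Against DMSO, 76 of the 84 tested members were higher at 25 h and 1 was lower (edgeR quasi-likelihood test on counts summed per library, adjusted p below 0.05 over all 11474 genes tested). Of all genes tested, 24.5% were called higher and 26.1% lower. The median log2 fold change was 0.86 over the members and 0.01 over all genes tested. At 13 h against DMSO, 66 members were called higher and none lower, where 21.4% of all genes were higher and 24.3% lower, and the member median was 0.32. In enterocytes alone the counts were 76 higher and 1 lower at 25 h, beside 26.1% and 24.2% of genes there, and 66 and 0 at 13 h, beside 23.8% in either direction. In goblet cells 83 were higher and 0 lower at 25 h, beside 15.8% and 16% of 7839 genes, and 81 and 0 at 13 h, beside 10.8% and 11.5%. Goblet medians were 1.52 at 25 h and 0.79 at 13 h on the log2 scale.

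The later step added more than the earlier one for most members. From 13 h to 25 h, 65 members were called higher and 1 lower, beside 8.95% and 9.6% of all genes, with a median log2 fold change of 0.51. In goblet cells 68 members were higher at 25 h than at 13 h and 0 lower, beside 2.03% and 1.47% of genes. In enterocytes, 67 were higher and 1 lower, beside 10.4% and 10.9%. Over all cells, 61 members were called higher in both steps. The share of all genes called higher in both was not counted, and cannot exceed the 8.95% of the later step. In the fit of all 6 libraries, 8 of the 84 had a larger log2 change between DMSO and 13 h than between 13 h and 25 h, and 6 of these are a paralog or a near match: Rpl36al, Rpl22l1, Rpl7l1, Rps27l, Rps27rt and Rps19bp1, beside Rpl10 and Rpl41. That count was 30 without 25 h replicate 2, 18 without DMSO replicate 1, 13 without 13 h replicate 2, and between 6 and 10 without each of the others. From ratios within replicate 1 it was 28, and within replicate 2 it was 7, with libraries matched by number only. The comparisons share libraries, so their values are set side by side and not correlated. Without regard to the test, both 25 h libraries exceeded both DMSO libraries in 76 of the 84 members, where 37.4% of all genes did so. Both 13 h libraries exceeded both DMSO libraries in 78 members, where 35.1% of genes did so, and both 25 h libraries exceeded both 13 h libraries in 71 members, where 29.7% of genes did so.

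Rps6, the small subunit protein that S6 kinases phosphorylate, had the largest fitted change over all cells. The gene lies at chr4:86854660-86857412. It had 689 and 685 CPM, here with library sizes scaled by edgeR's TMM, in DMSO, 1009 and 1036 CPM at 13 h, and 1810 and 1802 CPM at 25 h. The libraries of a group nearly coincide and the groups do not overlap. Its mean was 1806 ± 5.18 CPM at 25 h and 687 ± 2.88 CPM in DMSO (SD, n = 2 each), a log2 fold change of 1.40 ± 0.0452 (standard error, edgeR adjusted p = 4.94e-10). Rps18, whose product lies in the head of the small subunit, had 2482 and 2731 CPM at 25 h and 1082 and 1114 CPM in DMSO, a log2 fold change of 1.25. Rps27a, translated as a fusion with ubiquitin, had 1881 and 1933 CPM at 25 h and 841 and 827 CPM in DMSO.

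Among large subunit genes, Rpl12, whose product forms the base of the stalk that recruits translation factors, had 250 and 246 CPM in DMSO, 365 and 349 CPM at 13 h, and 591 and 654 CPM at 25 h. Its log2 fold change at 25 h was 1.33 ± 0.0566 (edgeR adjusted p = 4.01e-09). Rpl14, Rpl10, Rpl15 and Rpl3 stood between 1.22 and 1.27. Rpl10, an X-linked gene whose product joins the large subunit late in its assembly, had 1791 and 1896 CPM in DMSO, 2936 and 2928 CPM at 13 h, and 4439 and 4444 CPM at 25 h. At 0.67, its log2 change by 13 h was the largest of any called member other than Rpl36al and Rps19bp1. Rpl5 and Rpl11, which with 5S rRNA bind the p53 regulator Mdm2 when ribosome assembly is disturbed, rose by 1.12 and 0.92 on the log2 scale at 25 h. The catalytic-centre protein gene Rpl3 had 734 and 757 CPM at 25 h and 325 and 317 CPM in DMSO.

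In the fit of all 6 libraries, the stalk proteins themselves rose less evenly. Rplp0, the stalk base, had 2860 and 3119 CPM in DMSO, 3665 and 3569 CPM at 13 h, and 5560 and 5487 CPM at 25 h. Its log2 fold change at 25 h was 0.89. Rplp1 and Rplp2, the stalk tips, stood at 0.59 and 0.58, and Rplp2 at 13 h did not pass the test (edgeR adjusted p = 0.0675). The gap to Rplp0 depended on the libraries compared, matched here by number only. The log2 ratios of 25 h to DMSO between libraries numbered 1 were 0.96 for Rplp0, 0.42 for Rplp1 and 0.33 for Rplp2. Between libraries numbered 2 they were 0.81, 0.73 and 0.81. Counts from the 3′ end are not scaled to transcript length, so levels of different genes are not ranked here.

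**Figure D3:**
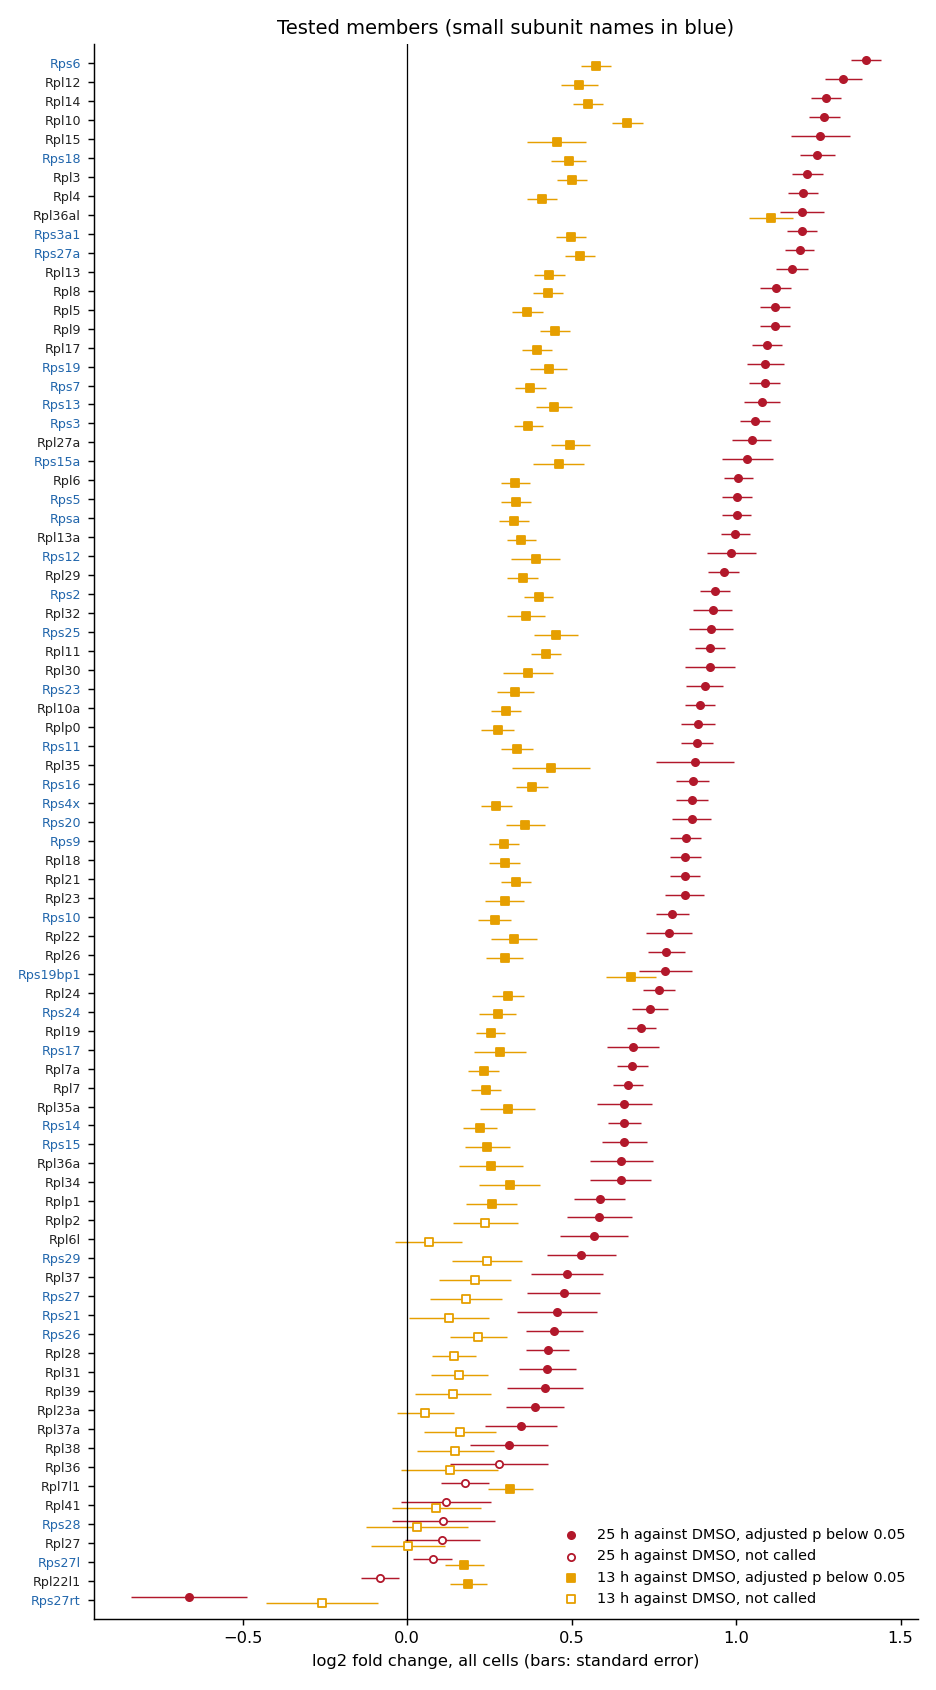
Log2 fold change over all cells of the tested members reported by name, at 25 h (red circles) and 13 h (orange squares) against DMSO, with standard errors; filled symbols passed the test. Members are ordered by the change at 25 h, from Rps6 at 1.40 to Rps27rt at −0.66, and small subunit names are blue.

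Large subunit transcripts gained slightly less than small subunit transcripts. Over all cells, the log2 ratio of large to small subunit UMIs was 0.578 and 0.577 in the DMSO libraries, 0.556 and 0.548 in the 13 h libraries, and 0.493 and 0.502 in the 25 h libraries, without overlap between groups. That is a fall by 0.08 at 25 h against DMSO, or 1.41 and 1.42 large subunit UMIs for each small subunit UMI at 25 h, against 1.49 and 1.49 in DMSO. In goblet cells the ratio fell by 0.177, and in enterocytes by 0.073, on the log2 scale. The exact permutation test gave p = 0.333 for each, the lowest possible. Averaged per gene in place of summed, the difference over all cells was −0.04 on the log2 scale. The median log2 fold change at 25 h was 0.83 over 50 large subunit genes and 0.87 over 34 small subunit genes, and 45 and 31 of them were called higher.

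Some members did not follow the rest. To find them, libraries were rescaled to their member total, so that a member at 0 moved with the sum of all. This was done over all cells only, not within a class. At 25 h against DMSO, 11 members departed from that total by at least 0.5 on the log2 scale with adjusted p below 0.05, where 72.1% of all genes did so. Above it were Rps6 (0.59) and Rpl12 (0.51). Below it were Rps27rt (−1.48), Rpl22l1 (−0.89), Rps27l (−0.73), Rps28 (−0.71), Rpl27 (−0.71), Rpl41 (−0.70), Rpl7l1 (−0.63), Rpl36 (−0.54) and Rpl38 (−0.51). At 13 h against DMSO, where 34.7% of genes departed, Rpl36al lay above by 0.79 and Rps27rt below by 0.57. Rps27rt no longer departed at 13 h without DMSO replicate 1 or without 13 h replicate 1, and its value with a setting changed ranged from −0.84 to −0.23. From 13 h to 25 h, where 44.7% departed, the 4 were all below: Rps27rt, Rpl22l1, Rpl7l1 and Rps27l.

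Over all cells, the paralogs were the clearest exceptions. Rpl36al, a paralog of Rpl36a at chr12:69182731-69184083, had 297 and 295 CPM in DMSO, 627 and 648 CPM at 13 h, and 627 and 735 CPM at 25 h. It was fully raised by 13 h, with a log2 fold change of 1.11 ± 0.0664 against DMSO (edgeR adjusted p = 9.27e-08), and its change from 13 h to 25 h of 0.10 did not pass the test (adjusted p = 0.356). Rpl36a itself had 543 and 513 CPM in DMSO, 641 and 618 CPM at 13 h, and 714 and 944 CPM at 25 h. The step at 13 h thus stood at 0.25 for Rpl36a, on the log2 scale.

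Rpl22l1, the paralog of Rpl22, had 582 and 566 CPM in DMSO, 646 and 660 CPM at 13 h, and 510 and 573 CPM at 25 h. It rose by 13 h against DMSO (log2 fold change 0.19, adjusted p = 0.0184) and lower at 25 h than at 13 h (−0.27, adjusted p = 0.00668). Rpl22 had 642 and 763 CPM at 25 h and 413 and 396 CPM in DMSO, with no overlap. Rps27l, a paralog of Rps27 that p53 induces, had 687 and 713 CPM in DMSO, 804 and 776 CPM at 13 h, and 694 and 784 CPM at 25 h, and only the 13 h step passed the test (0.17, adjusted p = 0.0294). Rpl7l1, a relative of Rpl7 that acts in large subunit assembly, had 30.5 and 32.5 CPM in DMSO, 38.6 and 39.6 CPM at 13 h, and 37.4 and 33.8 CPM at 25 h. It too passed the test only at 13 h (0.31, adjusted p = 0.00265).

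Rps27rt was the member called lower at 25 h. Its mRNA is below 450 bases, a length at which counts also differed between libraries of a group, as given below. It is a retrocopy of Rps27 at chr9:114982366-114982739, and reads of near-identical copies cannot be assigned with certainty. It had 232 and 149 CPM in DMSO, 147 and 172 CPM at 13 h, and 102 and 138 CPM at 25 h. The DMSO libraries differ by more than DMSO replicate 2 differs from either 25 h library. The log2 fold change of −0.66 (edgeR adjusted p = 0.00797) was −0.31 without DMSO replicate 1 (adjusted p = 0.102) and −0.47 without 25 h replicate 1 (adjusted p = 0.0535). Rps27, the parent gene, had 2488 and 3380 CPM at 25 h and 2257 and 1963 CPM in DMSO.

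Also caught by the naming rule, Rps19bp1 encodes a protein that binds Rps19 and is no part of the ribosome. It had 22.3 and 21.3 CPM in DMSO, 34.0 and 36.0 CPM at 13 h, and 35.1 and 39.9 CPM at 25 h, and its log2 fold change was already 0.68 at 13 h (adjusted p = 1.85e-05). Rpl6l, a processed pseudogene by its annotation, had 166 and 148 CPM at 25 h and 102 and 110 CPM in DMSO. Without these 7 paralogs and near matches, 73 of 77 members were higher at 25 h over all cells and none was lower. The 4 not called were Rpl27, Rpl36, Rpl41 and Rps28. In goblet cells all 77 were called higher at 25 h, with the lowest log2 fold change at 0.54. Of the 7 paralogs and near matches, 6 were higher there and 0 lower, beside 15.8% and 16% of genes. Fau and Rack1 are ribosomal proteins that the rule does not take in. Both rose at 25 h, Rack1 by 1.07 and Fau by 0.31 on the log2 scale, and Fau at 13 h did not pass the test (adjusted p = 0.0983).

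Of the other members that lagged, Rps28, Rpl41, Rpl36 and Rpl38 have short mRNAs, and counts of short mRNAs also differed between libraries of a group. Rpl41, the smallest ribosomal protein, had 3673 and 3199 CPM in DMSO, 3667 and 3644 CPM at 13 h, and 2976 and 4480 CPM at 25 h. The 25 h libraries lie on either side of all others. Rps28 likewise had 571 and 886 CPM at 25 h, and 754 and 596 CPM in DMSO. For the 8 members with a transcript below 450 bases and at least 200 CPM, replicate 2 exceeded replicate 1 by a median log2 of −0.19 in DMSO, −0.01 at 13 h and 0.52 at 25 h. At 900 to 1500 bases the 25 h difference was 0.04. Other nuclear genes at 200 CPM or more did the same: the median difference at 25 h was 0.32 over 19 genes below 450 bases and −0.02 over 159 genes of 900 to 1500 bases.

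The change of short members differed with the libraries compared, which are matched here by number only, and the numbers do not pair them. The log2 ratio of 25 h to DMSO below 450 bases had a median of 0.02 between libraries numbered 1 and 0.72 between libraries numbered 2. From 900 to 1500 bases it was 0.93 and 0.98. Across 80 members, the log2 ratio of group means at 25 h against DMSO had a Spearman rho with transcript length of 0.548, given as a description of genes measured in the same libraries. Of 9 tested members below 450 bases, 5 were called higher and 1, Rps27rt, lower at 25 h, beside 24.5% and 26.1% of all genes tested. Their median log2 fold change was 0.31, against 0.57 without 25 h replicate 1 and 0.04 without 25 h replicate 2. Of 74 tested members of at least 450 bases, 70 were called higher and none lower, beside the same shares of all genes. Without 25 h replicate 2, the log2 fold change of Rpl41 was −0.21 (adjusted p = 0.0232) and that of Rps28 −0.24 (adjusted p = 0.0624). Among members departing at 25 h against DMSO, Rpl38 and Rpl36 no longer departed without 25 h replicate 1, nor did Rps28. Rpl12, with a lowest value of 0.49, no longer departed with TMM over the members only. Rpl38 and Rpl36 were also lost without DMSO replicate 1. None of Rpl12, Rpl7l1, Rpl36 and Rpl38 departed with cells of at most 10% mitochondrial UMIs, nor did Rpl7l1 without 25 h replicate 2. Rpl22l1, Rps27l, Rpl27, Rpl41, Rps27rt and Rps6 departed under each of the 9 alternatives run.

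**Figure D4:**
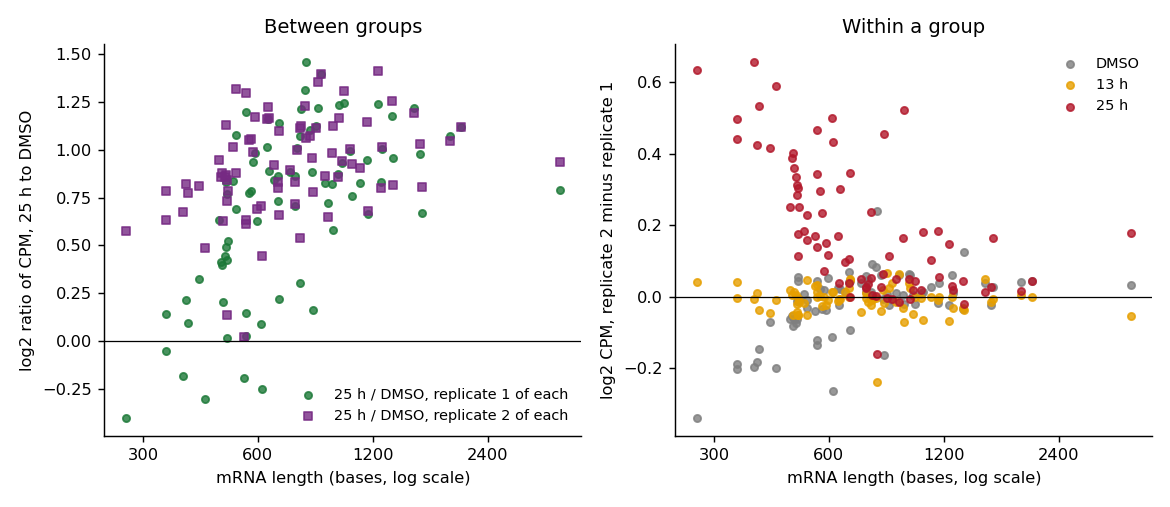
Left, log2 ratio of CPM at 25 h to DMSO for 80 members against mRNA length (log axis, bases), between libraries numbered 1 (green circles) and libraries numbered 2 (purple squares); right, replicate 2 minus replicate 1 within each group. Short members spread widely between replicates at 25 h, with a median difference of 0.52 below 450 bases.

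Goblet cells responded more strongly than enterocytes in almost every member. In a fit with a term for the difference in response, 80 of 84 members had a higher log2 change in goblet cells and 1 a lower one at 25 h against DMSO, where 2.55% of 10458 genes responded more in goblet cells and 4.5% less (edgeR, adjusted p below 0.05). The median difference was 0.69 on the log2 scale. At 13 h against DMSO, 76 had a higher change and 1 a lower one, beside 1.48% and 3.33% of genes. From 13 h to 25 h, 7 members differed, all with the higher change in goblet cells, beside 0.306% and 0.22% of genes: Rpl12, Rplp0, Rplp1, Rpl23, Rps7, Rps12 and Rps19. That count was 14 with cells of at most 10% mitochondrial UMIs and between 0 and 7 with a library left out.

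Rpl12 differed most. In goblet cells it had 144 and 130 CPM in DMSO, 373 and 339 CPM at 13 h, and 810 and 955 CPM at 25 h. In enterocytes it had 235 and 245 CPM in DMSO, 328 and 330 CPM at 13 h, and 541 and 592 CPM at 25 h. It was below the enterocyte level in DMSO goblet cells and above it at 25 h, with a difference in response of 1.41 ± 0.119 on the log2 scale (adjusted p = 3.89e-11). Rps19, whose human counterpart is mutated in Diamond-Blackfan anaemia, had 2813 and 3376 CPM in goblet cells and 2474 and 2798 CPM in enterocytes at 25 h, against 653 and 679 CPM in goblet cells and 1243 and 1309 CPM in enterocytes in DMSO. Its difference in response was 1.13.

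Rpl36al and Rpl10 stood apart from this pattern. Rpl36al had 897 and 1093 CPM in goblet cells at 25 h and 644 and 556 CPM in DMSO goblet cells, while in enterocytes it had 568 and 672 CPM at 25 h and 256 and 262 CPM in DMSO. It rose less in goblet cells, by 0.57 on the log2 scale at 25 h (adjusted p = 0.000152). Without DMSO replicate 1, this difference no longer passed the test, either at 25 h or at 13 h. Rpl10 rose by 1.29 in goblet cells and by 1.29 in enterocytes, and the difference of −0.04 ± 0.0827 did not pass the test (adjusted p = 0.876). Rps19bp1 and Rpl7l1 were the other members without a call, at 0.19 ± 0.23 and 0.51 ± 0.236.

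**Figure D5:**
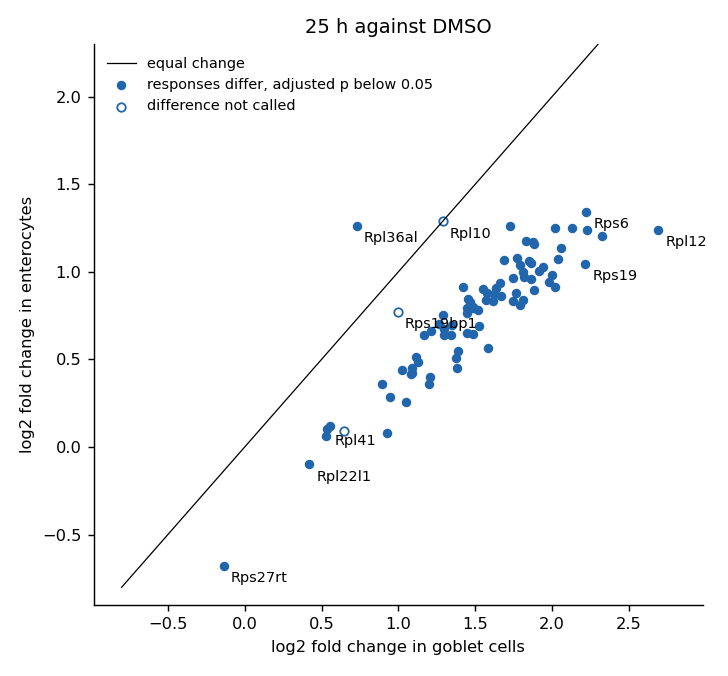
Log2 fold change of each tested member at 25 h against DMSO in goblet cells (x axis) and enterocytes (y axis). Filled points passed the test of the difference in response, and nearly all lie below the line of equal change, with Rpl36al above it and Rpl10 on it.

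Many genes that make ribosomes were called higher by 13 h, and calls after it stayed near the share over all genes. Over all genes tested, 21.4% were higher and 24.3% lower at 13 h against DMSO, 24.5% and 26.1% at 25 h against DMSO, and 8.95% and 9.6% from 13 h to 25 h. Of 16 tested nucleolar and small nucleolar ribonucleoprotein genes, 11 were higher at 13 h against DMSO and 12 at 25 h, none lower, and 2 were higher at 25 h than at 13 h. Of 24 tested small subunit assembly genes, 15 were higher at 13 h, 15 higher and 1 lower at 25 h, and 1 higher and 1 lower from 13 h to 25 h. Of 35 large subunit assembly genes, 24 were higher at 13 h, 24 higher and 2 lower at 25 h, and 3 higher and 2 lower in the later step. Of 15 genes of RNA polymerase I transcription, which makes the rRNA precursor, 7 were higher at 13 h and 5 at 25 h. The list medians from 13 h to 25 h were 0.13 for nucleolar genes, 0.02 for small subunit assembly, 0.00 for large subunit assembly and −0.06 for polymerase I. Beside these, the median was 0.51 for the ribosomal proteins and 0.002 over all genes tested.

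Single genes show both courses. Ddx21, a nucleolar helicase, had 10.3 and 11.1 CPM in DMSO, 21.0 and 19.1 CPM at 13 h, and 20.3 and 20.7 CPM at 25 h, so that the treated groups overlap. Nop58, a box C/D core protein, had 9.52 and 8.54 CPM in DMSO, 16.7 and 17.7 CPM at 13 h, and 14.8 and 14.2 CPM at 25 h. Imp3, a component of the small subunit processome, had 50.9 and 49.1 CPM in DMSO, 72.4 and 78.8 CPM at 13 h, and 94.3 and 92.9 CPM at 25 h. Npm1, the nucleolar chaperone nucleophosmin and itself a TOP mRNA, had 202 and 189 CPM in DMSO, 267 and 272 CPM at 13 h, and 462 and 467 CPM at 25 h, with the larger step after 13 h.

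Other mRNAs with a TOP motif moved as the ribosomal proteins did. Of 15 tested, all were higher at 25 h against DMSO, 13 at 13 h, and 15 from 13 h to 25 h. Of all genes tested, 24.5%, 21.4% and 8.95% were higher in these comparisons. The medians of the 15 were 0.73, 0.28 and 0.50 on the log2 scale. Eef1a1, which delivers aminoacyl-tRNA to the ribosome, had 2205 and 2308 CPM in DMSO, 2876 and 2794 CPM at 13 h, and 4708 and 4755 CPM at 25 h. Eef1g, a subunit of its exchange factor, had 250 and 232 CPM in DMSO, 370 and 373 CPM at 13 h, and 647 and 644 CPM at 25 h.

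Of the 15 listed regulators of TOP mRNAs, 5 were higher and 2 lower at 13 h, and 6 were higher and 2 lower at 25 h, each against DMSO. Over all genes tested, 21.4% were higher and 24.3% lower at 13 h, and 24.5% and 26.1% at 25 h. The median log2 change of the list at 25 h was 0.00. Eif4ebp1, the cap-binding inhibitor that mTORC1 phosphorylates, had 124 and 121 CPM in DMSO, 433 and 433 CPM at 13 h, and 477 and 474 CPM at 25 h. Ddit4 and Sesn2, which restrain mTORC1, rose by 0.94 and 1.11 on the log2 scale at 13 h. Tia1, a stress granule protein that binds TOP mRNAs, fell by 0.56 at 25 h. The mitochondrial ribosomal proteins, 78 genes whose products form the separate ribosome of mitochondria, more often rose than fell: 48 were higher and 6 lower at 25 h against DMSO, where 24.5% and 26.1% of all genes were, with a median log2 change of 0.27. In goblet cells 38 of 75 tested were higher and 1 lower, beside 15.8% and 16% of genes, and in enterocytes 49 of 78 were higher and 4 lower, beside 26.1% and 24.2%.

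Over the 6 libraries, the 10 other genes whose log2 CPM was most like the member total, among 2635 compared, were Glrx3, Park7, Mrpl23, Cdc37, Eif3i, Klf9, Mrpl24, Cct7, Rce1 and Hint2, with Pearson r from 0.992 for Hint2 to 0.9995 for Glrx3. With libraries in 3 groups, such values describe the course over the groups only. The members least like the rest were Rps27rt (r = −0.69) and Rpl22l1 (r = −0.33).

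Other measures moved with the groups. Against DMSO, 9 of 9 tested enterocyte markers were lower at 25 h, over all cells and within enterocytes, beside 26.1% and 24.2% of genes. The sum of the enterocyte markers in enterocytes was 2882 and 3049 CPM at 25 h and 5635 and 5633 CPM in DMSO. Of 8 tested stem or cycling cell markers, 1 was higher and 4 were lower at 25 h over all cells, beside 24.5% and 26.1% of genes. With Olfm4 at 0, the sum of the stem or cycling markers was 55.1 and 57.0 CPM at 25 h and 103 and 95.2 CPM in DMSO. The 8 immune or stromal markers summed to 2.28 to 3.92 CPM over all libraries, with Cd3e, Col1a2, Dcn and Ptprc at 0. The part of these shifts in the rise of the members was not tested. Within summed counts, fewer cells of a type and less RNA per cell cannot be told apart.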

How the data were processed

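The authors deposited a matrix of raw UMI counts per gene and cell, made from 10x Genomics 3′ V2 libraries with Cell Ranger on mm10, per the submitters' processing notes and the labels' protocols. Its version, cell calling and the assignment of classes are not given there. Libraries and classes were read from the deposited cell names. Symbols came from GENCODE vM21 and promoter sequences from RefSeq on GRCm38.p6. The members and lists were chosen with earlier results of these data known.

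Of 5122 cells, 5026 were kept, with a minimum of 1000 UMIs and 500 genes per cell and no more than 25% of UMIs from mitochondrial genes. Doublets were not removed, and 12 barcodes occurred in more than 1 library. UMIs were summed per library, over all cells and within a class, and tested with edgeR 4.0.16 in R 4.3.3 (filterByExpr, TMM scaling, quasi-likelihood test, Benjamini-Hochberg over all genes, threshold 0.05), with all 6 libraries in 1 fit. The response of goblet cells was compared with that of enterocytes by an interaction term with library as a block. For departures, the member total served as library size. Library shares were compared by an exact permutation test. Transcript length is that of the shortest APPRIS principal transcript. Fits were tested on simulated data. For named genes, values per library were given for the 8 highest and 8 lowest changes among members of at least 20 CPM, departing members, paralogs, stalk genes, members with the most and fewest UMIs and members with a class difference, and of other lists for the 4 lowest adjusted p. Genes named beside these for background were chosen after their values were seen. P-values of edgeR set a change against the spread between libraries within groups. That spread was estimated over all 3 groups of 2 libraries together and draws on other genes. Alternatives were DESeq2 1.42.0, other scalings, cell filters and a replicate block, and each library left out. Results for some single genes are not reported here.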

Additional observations from a re-analysis of the deposited data

Results flagged for a closer look

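Responses that differed between goblet cells and enterocytes, by the test of the difference itself, are gathered here. The number of members with such a difference was 81 at 25 h against DMSO, 77 at 13 h against DMSO and 7 from 13 h to 25 h. At 25 h against DMSO, the goblet minus enterocyte log2 fold change was 1.41 for Rpl12, 1.13 for Rps19, 1.08 for Rps18, 1.07 for Rps2 and −0.57 for Rpl36al. At 13 h against DMSO it was −0.55 for Rpl36al, whose call at either time was lost without DMSO replicate 1. From 13 h to 25 h it was 0.53 for Rpl12, 0.46 for Rps12, 0.45 for Rps19, 0.44 for Rplp1, 0.38 for Rplp0, 0.37 for Rpl23 and 0.37 for Rps7. In the class named tuft, which entered no gene test, the member share of UMIs was 5.98 percentage points higher at 25 h than in DMSO, from libraries of 12 to 27 cells.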

How the results depend on the processing

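Counts of members called higher stayed within 1.5 times under each alternative. The counts called lower, small throughout, did not. At 25 h against DMSO, DESeq2 called 0 lower over all cells and 0 in enterocytes, and in enterocytes 2 were lower without a filter on low counts and 2 with cells of at most 10% mitochondrial UMIs. Without the filter, 1 was lower at 13 h against DMSO over all cells and 1 in enterocytes, and 2 over all cells and 4 in enterocytes from 13 h to 25 h, where the mitochondrial limit gave 2 in enterocytes. The mitochondrial limit gave 7 departing members at 25 h against DMSO and 14 class differences from 13 h to 25 h. The member share at 13 h exceeded DMSO by 2.79 points without mitochondrial UMIs and 2.86 with the limit over all cells, and by 2.43 and 2.41 in enterocytes. The large to small difference over all cells was −0.0917 at 25 h and −0.0680 in the later step without the top 3 members of each subunit. As mean log2 CPM it was −0.0381 at 25 h, −0.0127 at 13 h and −0.0255 in the later step over all cells, −0.0320, −0.0146 and −0.0175 in enterocytes, and −0.118, −0.0529 and −0.0655 in goblet cells, and without the top 3 members −0.0612 in the later step in enterocytes. The cause was not tested. With a library left out, members called lower numbered 0 to 3 over all cells, 0 to 4 in enterocytes and 0 to 1 in goblet cells at 25 h against DMSO, 0 to 1 over all cells and in enterocytes at 13 h, and 1 to 4 and 1 to 6 in the later step. Departing members numbered 8 to 17 at 25 h, 1 to 2 at 13 h and 4 to 8 in the later step, and class differences in the later step 0 to 7. Signs turned for weakly changed members, as these ranges with a library left out show. At 25 h against DMSO, the log2 change was −0.13 to 0.30 for Rpl27 (−0.0053 without DMSO replicate 2), −0.0864 to 0.57 for Rpl36, −0.21 to 0.38 for Rpl41, −0.0126 to 0.16 for Rps27l and −0.24 to 0.39 for Rps28. At 13 h it was −0.11 to 0.14 for Rpl27, −0.15 to 0.28 for Rpl6l, −0.53 to 0.0943 for Rps27rt and −0.12 to 0.21 for Rps28. From 13 h to 25 h it was −0.13 to 0.30 for Rpl27, −0.22 to 0.44 for Rpl36, −0.0248 to 0.20 for Rpl36al, −0.11 to 0.39 for Rpl38, −0.30 to 0.29 for Rpl41 and −0.27 to 0.36 for Rps28. Rpl27 at 13 h was −0.00568 without the filter, and Rpl41 in the later step −0.0252 with the mitochondrial limit. Replicate numbers did not pair the samples. Over 5108 genes, replicate differences correlated at 0.153 (DMSO with 13 h), −0.245 (DMSO with 25 h) and −0.177 (13 h with 25 h). Over the 84 members these values were −0.474, −0.760 and 0.227. A replicate block gave 75, 65 and 65 members higher over all cells at 25 h against DMSO, 13 h against DMSO and 25 h against 13 h. Scaling to total UMIs moved the median log2 change of all genes in goblet cells by 0.134 at 25 h and 0.162 at 13 h, each against DMSO. Rpl3l, Rpl10l and Rpl39l did not pass the filter on low counts and have no test.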

Other observations

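Of 300 annotated pseudogene symbols of the ribosomal proteins, 16 had a row in the matrix and 15 had UMIs, outside the naming rule. Together they came to 0.810% and 0.801% of the member UMIs in the DMSO libraries, 0.772% and 0.493% in the 13 h libraries, and 0.456% and 0.484% in the 25 h libraries. Of the 13 h libraries, replicate 1 lay near the DMSO libraries and replicate 2 near the 25 h libraries.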
